A study of Mus musculus with 4 samples.

Results

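The genes that read methylated CpG and repair its damage were followed across the 4 libraries of the series: the methyl-CpG-binding domain genes Mbd1, Mbd2, Mbd3 and Mbd4, the hemimethylated-DNA readers Uhrf1 and Uhrf2, the glycosylase gene Tdg, and the zinc finger readers Zbtb4 and Zbtb38. They were chosen by name and known function, with earlier results of these data known, and are 9 of the 28883 genes with a listed region. The data are from C3H10T1/2, a cell line from C3H mouse embryos that serves as a model of mesenchymal stem cells (MSCs). All cells were transfected for 48 h, either with a control siRNA (NC) or with an siRNA to DNMT1 (siDNMT1), the methyltransferase that copies methylation onto newly made DNA. They were then left uninduced or were induced towards osteoblasts (OB) for 3 days with 50 µM ascorbic acid, 10 mM β-glycerophosphate and 0.001 µM dexamethasone. The 4 conditions were NC uninduced, siDNMT1 uninduced, NC OB and siDNMT1 OB, with 1 library each, so no difference between conditions had a replicate check and no p-value was computed. The labels do not say whether the uninduced cells stayed in culture for the same 3 days, so induction and time in culture cannot be told apart. The files hold methylation and no expression, and neither the knockdown nor the cell type could be checked in them.

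Methylated CpG is read by proteins of several families. MBD proteins hold a methyl-CpG-binding domain and bring repressors to methylated DNA; MBD2 and MBD3 are alternative subunits of the NuRD complex, which couples nucleosome remodelling to histone deacetylation, although mammalian MBD3 has lost the selectivity for methyl-CpG. UHRF1 binds CpG methylated on a single strand behind the replication fork and brings DNMT1 there, which makes it the partner of the enzyme that was depleted. MBD4 and TDG are DNA glycosylases that remove the thymine left when 5-methylcytosine deaminates, and TDG also removes the oxidised forms of 5-methylcytosine that TET enzymes make. Whether such genes carry methylation at their own starts, and whether it moved with DNMT1 depletion or with OB induction, is what was measured.

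Bisulfite converts unmethylated cytosine and spares 5-methylcytosine, and the methylation level is the fraction of methylated CpG cytosines in a region, from 0 to 1. Each gene has at most 1 level for its promoter, defined by the study as the 2 kb before the transcription start, and 1 each for its 5′ UTR, exons, introns and 3′ UTR. CpG islands, which are stretches dense in CpG, and shores, the flanks of islands, are listed by position and were given to a gene where they overlap it. The 9 genes have 59 of the 164078 regions listed in the series, and 57 of the 59 have a level in all 4 libraries. These entries overlap: an island also lies in the promoter, the 5′ UTR or the first exon, so the entries of a gene are not independent of each other. The values carry no read counts, so depth is unknown and no interval was given. Regions whose level differed by 0.1 or more between 2 libraries were called changed, and "rose" and "fell" are kept for such regions.

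The sequences before the starts of some of these genes show how differently they are supplied with CpG. Mbd3 and Zbtb38 are shown because their promoters changed with induction, Uhrf2 because its island was the most methylated of those of the 9 genes with a level in all 4 libraries, and Tdg for contrast, as a gene with an unmethylated island at its start. That Uhrf2 island was more methylated than 62.4% to 65.7% of all islands, depending on the library. All are GRCm38 bases that end just before an annotated start or, for the inner start of Zbtb38, just before an annotated exon near it, printed 5′ to 3′ along the gene's strand with each CpG in capitals. Mbd3 is chr10:80399551-80399781 on the minus strand, before its outermost start, with 13 CpG. Which start its promoter entry was measured from is not given, and the island that holds this sequence was unmethylated, at 0.0112 to 0.0131. Uhrf2 is chr19:30030263-30030512 on the plus strand, with 23 CpG. Tdg is chr10:82629588-82629827 on the plus strand, with 18 CpG. The outermost start of Zbtb38 is chr9:96752832-96753081 on the minus strand, with 7 CpG, and an inner start is chr9:96731743-96731925, with 4. The Mbd3, Uhrf2, Tdg and inner Zbtb38 sequences lie in RefSeq promoter windows of GRCm38.p6.
Mbd3: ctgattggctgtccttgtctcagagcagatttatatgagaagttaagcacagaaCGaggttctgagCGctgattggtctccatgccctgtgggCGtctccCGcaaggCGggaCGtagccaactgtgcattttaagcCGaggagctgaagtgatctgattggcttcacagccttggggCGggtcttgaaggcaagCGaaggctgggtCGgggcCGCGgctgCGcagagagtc
Uhrf2: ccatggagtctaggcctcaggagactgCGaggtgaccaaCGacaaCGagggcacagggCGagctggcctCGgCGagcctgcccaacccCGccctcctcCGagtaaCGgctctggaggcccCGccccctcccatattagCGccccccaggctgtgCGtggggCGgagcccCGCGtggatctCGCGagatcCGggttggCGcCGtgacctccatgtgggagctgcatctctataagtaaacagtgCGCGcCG
Tdg: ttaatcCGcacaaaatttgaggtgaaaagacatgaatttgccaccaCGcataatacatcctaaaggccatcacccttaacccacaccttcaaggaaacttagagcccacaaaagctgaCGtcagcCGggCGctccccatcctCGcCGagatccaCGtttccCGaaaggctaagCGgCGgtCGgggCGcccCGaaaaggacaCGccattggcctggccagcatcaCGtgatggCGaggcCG
Zbtb38, outermost start: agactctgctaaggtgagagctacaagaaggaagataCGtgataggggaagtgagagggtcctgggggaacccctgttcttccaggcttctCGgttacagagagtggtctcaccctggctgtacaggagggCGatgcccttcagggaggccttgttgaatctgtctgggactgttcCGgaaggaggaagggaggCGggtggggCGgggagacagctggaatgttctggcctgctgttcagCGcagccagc
Zbtb38, inner start: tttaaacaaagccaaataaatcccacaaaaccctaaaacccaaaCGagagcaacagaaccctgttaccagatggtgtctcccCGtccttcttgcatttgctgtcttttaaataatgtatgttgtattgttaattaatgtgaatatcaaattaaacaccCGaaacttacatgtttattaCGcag

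RefSeq gave 10 promoter windows of 300 bases (250 before and 50 after a start) for 7 of the genes. They held 8 to 41 CpG each, against a median of 7 over all 32851 windows. Both extremes belonged to Zbtb38, with 8 CpG at the inner start shown and 41 at a start inside its island. The letters GGGCGG, the GC box of SP and KLF factors, stood on either strand in 8 of the 10 windows and in 6 of the 7 genes, Tdg being the exception. Of all windows, 35.7% held it. The letters TCTCGCG, part of the palindrome known from Kaiso-bound sites, stood in the Uhrf2 window and in 2.56% of all windows. TGACGT, the core of a cyclic AMP response element, stood in the Tdg window and in 7.51% of all, and GCATGCG of NRF1 stood in a Uhrf1 window and in 3.58% of all. CCGGAAG of ETS factors stood in 1 Zbtb38 window and in 8.86% of all. None of these motifs contains another, and a match only says that the letters are there.

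**Figure D1:**
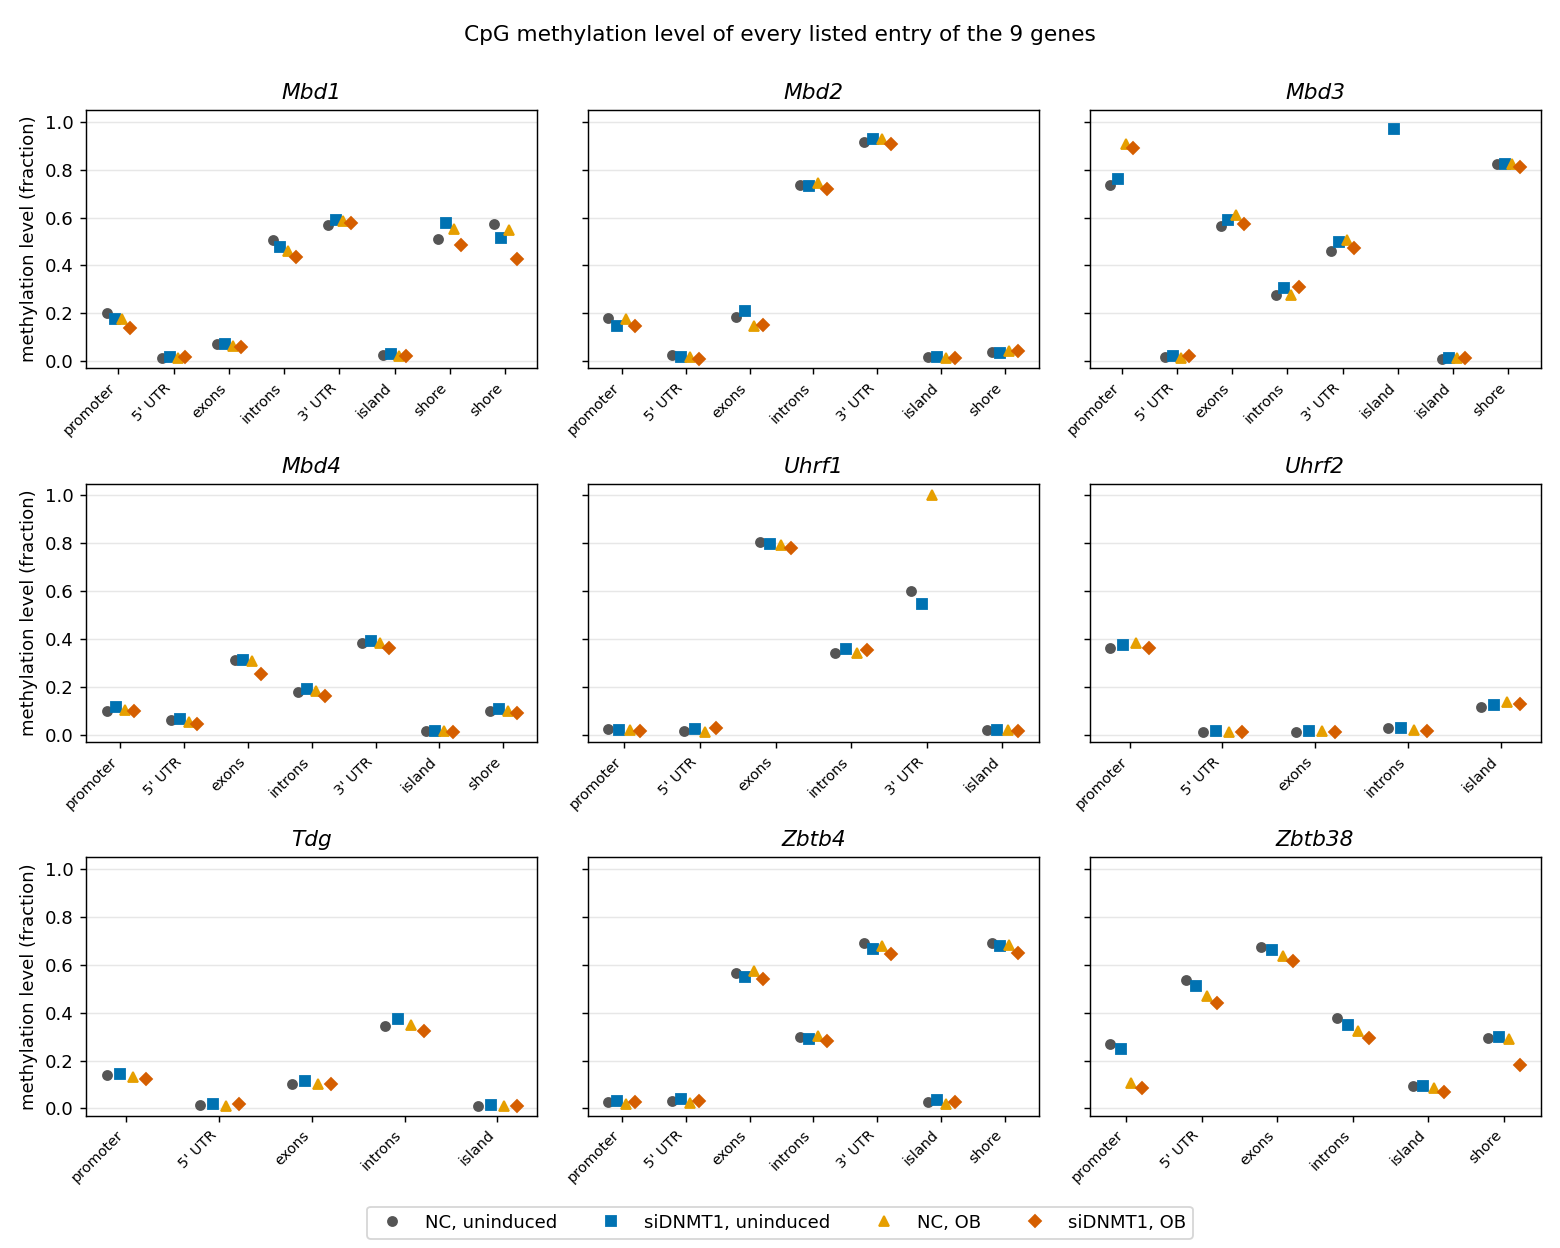
Methylation level (fraction of methylated CpG, y axis) of every listed entry of the 9 genes by region class (x axis), with 1 point per library. The start islands other than that of Uhrf2 (0.117 to 0.139) and the 5′ UTRs other than that of Zbtb38 lie near 0 in all 4 libraries, and the promoters of Zbtb38 and Mbd3 are where the OB libraries part from the uninduced ones.

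Low methylation of CpG islands was common to most of the 9 genes. Of their 9 islands with a level in all 4 libraries, 8 were below 0.1 in each library, and the lowest level was 0.0108, while the Uhrf2 start island lay between 0.117 and 0.139. The 5′ UTR was below 0.1 in each library for 8 of the 9 genes, Zbtb38 being the exception. Low levels are usual for both classes. Over all 14095 islands and all 11491 5′ UTRs the medians in NC uninduced cells were 0.0323 and 0.0286. Away from the starts, levels spread widely: exon levels ran from 0.0129 to 0.805 and intron levels from 0.0270 to 0.737 in the NC uninduced library. The median promoter of the 9 had a level of 0.180 in NC uninduced, 0.148 in siDNMT1 uninduced, 0.132 in NC OB and 0.125 in siDNMT1 OB cells. Over all 20152 promoters these medians were 0.191, 0.188, 0.174 and 0.164. In the NC uninduced library the promoters ordered, from low to high, as Uhrf1, Zbtb4, Mbd4, Tdg, Mbd2, Mbd1, Zbtb38, Uhrf2 and Mbd3, and without replicates it cannot be said which neighbours in this order differ.

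DNMT1 depletion left most of these genes near their control levels. In uninduced cells, 0 of the 57 entries changed by 0.1, against 1.46% of the 106689 regions of the same classes. In OB cells 2 changed, against 2.03%, and both were shores that fell, the downstream shore of Mbd1 and the shore of Zbtb38. Of all shores, 1.82% fell by as much in OB cells. None of the 9 promoters changed with siDNMT1 in uninduced or OB cells, where 1.48% and 2.19% of all promoters did. These member counts are small and near the background shares. The siDNMT1 OB library, in which both shores were lowest, also listed the fewest regions of the 4 (155398, against up to 159705), and the part of this in the falls was not tested.

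The smaller differences leaned one way in uninduced and the other way in OB cells, the latter mostly lost on centring. In uninduced cells siDNMT1 levels were lower than NC in 20 and higher in 37 of the 57 entries, with a median difference of 0.00201. In OB cells they were lower in 43 and higher in 14, with a median of -0.0109. Over all regions 54.6% were lower in uninduced and 65.7% in OB cells, with medians of -0.00115 and -0.00511, and for the 9 genes the shares were 35.1% and 75.4%. Once each library was centred on the median of each region class, 19 were lower and 38 higher in uninduced cells, and 31 were lower and 26 higher in OB cells, with medians of 0.00288 and -0.00237. Centring takes off the shift of the class medians, which can exceed the median difference of the regions. For promoters in OB cells the class median was 0.174 with NC and 0.164 with siDNMT1, while their median difference was -0.00371. Mbd4, Uhrf2 and Tdg were higher with siDNMT1 in each of their entries in uninduced cells, by at most 0.0285, and this held on centring.

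Between uninduced and OB cells, 2 promoters changed in opposite directions. In NC cells 2 of the 57 entries changed, against 2.12% of all regions, and in siDNMT1 cells 3 changed, against 3.27%. The promoter of Zbtb38 fell and that of Mbd3 rose in both, and the third entry was the Zbtb38 shore, which fell in siDNMT1 cells. Among all promoters 2.17% changed with induction in NC and 3.36% in siDNMT1 cells. The NC and siDNMT1 pairs have no library in common, and 155 of the 20152 promoters changed in the same direction in both, which is 0.769%. Among the 11616 promoters with a mean level between 0.1 and 0.9, a range set after the values were seen, 150 did, or 1.29%. Of the 57 entries, 34 were lower after induction in NC and 49 in siDNMT1 cells, or 59.6% and 86.0%, beside 63.4% and 73.4% of all regions. The median differences of -0.00235 and -0.0119 turned to 0.00501 and 0.00257 on the same centring, with 17 and 23 of the 57 entries lower. The promoters of Zbtb38 (-0.143 and -0.142) and Mbd3 (0.186 and 0.154) stayed past 0.1. Each induction comparison shares a library with each siDNMT1 comparison, so a level that is low in 1 library, as in siDNMT1 OB, enters both.

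**Figure D2:**
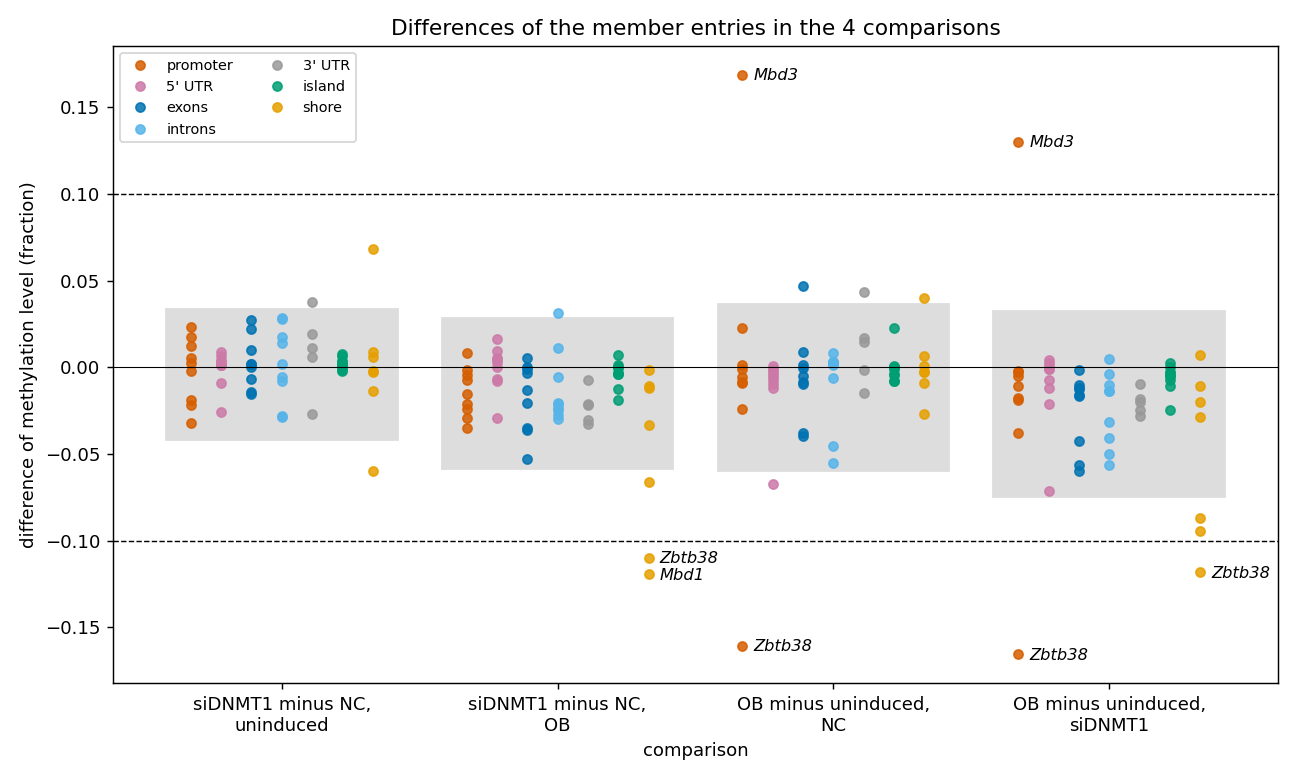
Difference of methylation level (fraction, y axis) of each of the 57 entries in the 4 comparisons (x axis), coloured by region class; grey bars span the 5th to 95th percentile of all 106689 regions and dashed lines mark 0.1. The promoters of Mbd3 and Zbtb38 lie outside the dashed lines in both induction comparisons, and the shores of Mbd1 and Zbtb38 below the lower line in the siDNMT1 comparison of OB cells.

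Mbd1 encodes a methyl-CpG reader that also has CXXC zinc fingers and works with the histone methyltransferase SETDB1. The gene lies on chromosome 18 from 74267605 to 74282732 on the plus strand (GRCm38). Its island, inside the gene from 74267932 to 74268512, had levels of 0.0274 in NC uninduced, 0.0311 in siDNMT1 uninduced, 0.0237 in NC OB and 0.0205 in siDNMT1 OB cells. The shores on either side of that island were far more methylated. The downstream shore, from 74268513 to 74270513, had 0.573, 0.514, 0.546 and 0.427 in the same order. It was lower with siDNMT1 both times, with differences of -0.0596 in uninduced and -0.119 in OB cells, and 1.68% of all shores differed as much in the latter.

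The upstream shore of Mbd1, from 74265931 to 74267930, covers the outermost annotated start and had levels of 0.511, 0.579, 0.551 and 0.485. Here siDNMT1 was the highest library in uninduced and the lowest in OB cells. The difference from NC was 0.0681 before and -0.0662 after induction, and 2.38% of shores had siDNMT1 differences that parted by as much. The promoter entry had 0.199, 0.178, 0.175 and 0.140, with siDNMT1 lower than NC both times. Most of the 2 kb before the outermost start lies inside that shore, and those 2 kb hold 36 CpG and no island. Mbd1 has 6 annotated starts, and which of them the promoter entry was measured from is not given. The 5′ UTR (0.0146 to 0.0178) and exons (0.0599 to 0.0721) stayed low in all 4 libraries. Introns were 0.505, 0.477, 0.460 and 0.436, lowest in siDNMT1 OB cells, as was the median of all introns (0.400). The 3′ UTR lay between 0.570 and 0.589.

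Mbd2, the methyl-CpG reader of NuRD, lies on chromosome 18 from 70568189 to 70626131 on the plus strand. Its promoter had 0.180 in NC uninduced, 0.148 in siDNMT1 uninduced, 0.175 in NC OB and 0.146 in siDNMT1 OB cells. Both siDNMT1 libraries were below both NC libraries, with differences of -0.0323 before and -0.0293 after induction. These are below the 0.1 threshold. The island over the start (0.0132 to 0.0180) and its shore within the gene (0.0353 to 0.0439) stayed near 0. Among the shores that overlap a gene and have all 4 levels, only that of Mbd2 was unmethylated, the others lying between 0.0896 and 0.825. Uhrf1, Uhrf2 and Tdg had no such shore. A shore outside Mbd3, before its outermost start, had 0.0400 in NC uninduced and 0.0625 in siDNMT1 uninduced cells. The exons had 0.186, 0.208, 0.146 and 0.152, lower in both OB libraries. The introns (0.718 to 0.745) and the 3′ UTR (0.908 to 0.930) were highly methylated throughout.

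Mbd3, the NuRD subunit without selectivity for methyl-CpG, lies on chromosome 10 from 80392539 to 80399550 on the minus strand. Its promoter entry had levels of 0.738 in NC uninduced, 0.761 in siDNMT1 uninduced, 0.907 in NC OB and 0.891 in siDNMT1 OB cells. Both OB libraries lay above both uninduced ones, and the rise was 0.169 with NC and 0.130 with siDNMT1. Of all promoters, 0.591% and 1.89% differed as much. The siDNMT1 differences were 0.0234 and -0.0151. This promoter was more methylated than 92.1% to 99.6% of all promoters, depending on the library, and it was the only 1 of the 9 at 0.5 or above.

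The start of Mbd3 read otherwise. The island over the outermost start, from 80398726 to 80399947, had 0.0112, 0.0126, 0.0119 and 0.0131, and the 5′ UTR lay between 0.0125 and 0.0221. Of the 50 CpG in the 2 kb before that start, 26 lie in this island, and the printed Mbd3 sequence is part of it. The gene has 5 annotated starts, 3 of them far inside the gene, at 80395719, 80395326 and 80395170. Which start the promoter entry was measured from is not given. Beside the inner starts, the shore from 80393296 to 80395295 had 0.825, 0.823, 0.823 and 0.812, and the short island from 80395297 to 80395621 was listed only in the siDNMT1 uninduced library, at 0.971. The shore before the outermost start, from 80399948 to 80401948, lies outside the gene and had 0.0400 in NC uninduced and 0.0625 in siDNMT1 uninduced cells, and was not listed in either OB library. The 2 kb before the outermost start lie in the start island and this shore. No listed level of either was above 0.0625, while the lowest level of the promoter entry was 0.738. In the uninduced libraries, which list both that island and this shore, the promoter entry was already at 0.738 and 0.761. Whether the missing listing of this shore in OB cells had a part in the rise was not tested.

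No other entry of Mbd3 changed by 0.1. Its exons had 0.564, 0.591, 0.611 and 0.575, its 3′ UTR 0.462, 0.4997, 0.506 and 0.475, and its introns 0.276, 0.304, 0.277 and 0.309. Exons and 3′ UTR were higher after induction in NC cells and lower in siDNMT1 cells, all by less than 0.05 (the exons turned to 0.00744 in siDNMT1 cells on centring), and introns were higher with siDNMT1 both times, by 0.0279 and 0.0314.

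Zbtb38 encodes a zinc finger protein of the Kaiso family that binds methylated CpG. The gene lies on chromosome 9 from 96682770 to 96752831 on the minus strand. Its promoter had levels of 0.268 in NC uninduced, 0.249 in siDNMT1 uninduced, 0.108 in NC OB and 0.0838 in siDNMT1 OB cells. Both OB libraries lay below both uninduced ones. The fall with induction was -0.161 with NC and -0.165 with siDNMT1, and 0.670% and 1.13% of all promoters differed as much. The siDNMT1 differences were -0.0189 and -0.0239.

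The rest of Zbtb38 was lower after induction too, by less. The 5′ UTR, the only methylated 1 of the 9 genes, had 0.535, 0.510, 0.468 and 0.439. The exons had 0.676, 0.661, 0.638 and 0.618, and the introns 0.379, 0.351, 0.324 and 0.294. In these 3 entries, the promoter and the island the order of the libraries was the same, from NC uninduced, the highest, through siDNMT1 uninduced and NC OB to siDNMT1 OB, the lowest. All 6 entries were lower in OB than in uninduced cells with either siRNA, with a median of -0.0465 with NC and -0.0637 with siDNMT1, beside -0.00363 and -0.00808 over all regions. These entries share CpG and count as 1 gene.

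The island of Zbtb38, from 96719505 to 96720064, lies some 33 kb inside the gene at inner starts and not at the outermost 1. It had 0.0939, 0.0922, 0.0863 and 0.0675. The shore beside it, from 96717504 to 96719503, had 0.294, 0.3, 0.292 and 0.182. Here only siDNMT1 OB cells stood apart, with a fall of -0.110 from NC OB and of -0.118 from siDNMT1 uninduced cells, and 2.05% and 3.04% of shores differed as much. After centring each library, these were -0.0980 and -0.0884, short of the threshold, and the small difference of this shore with induction in NC cells turned from -0.00245 to 0.0163. The 2 kb before the outermost start hold 34 CpG and no island, as the printed sequence shows for their last 250 bases. With 12 annotated starts, the start behind the promoter entry is not given. An antisense gene, A930006L05Rik, lies within Zbtb38, and levels were not listed by strand.

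**Figure D3:**
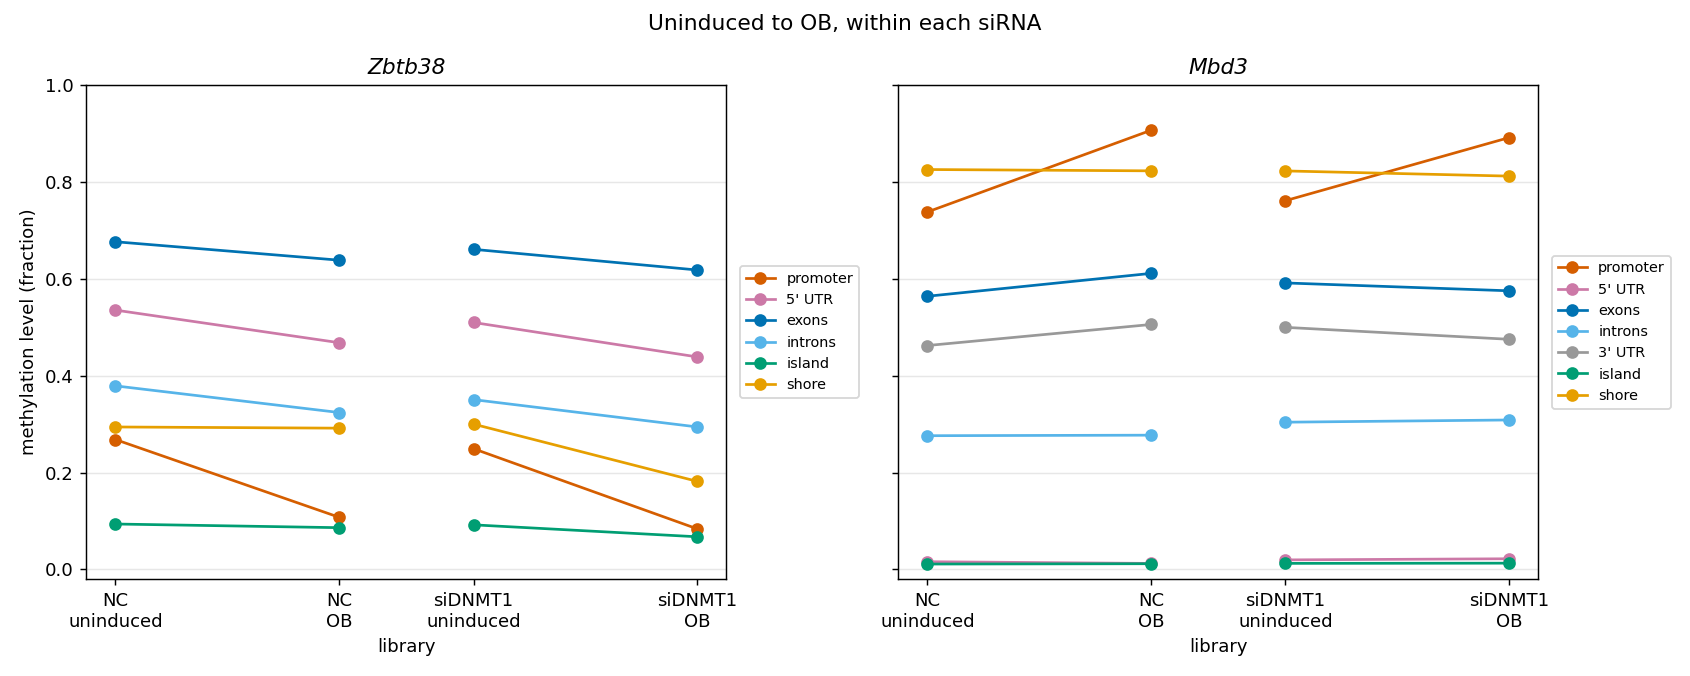
Methylation level (fraction, y axis) of the entries of Zbtb38 (left) and Mbd3 (right) with 4 levels, with lines from the uninduced to the OB library of each siRNA (x axis). The Zbtb38 promoter fell from 0.268 to 0.108 with NC and from 0.249 to 0.0838 with siDNMT1, while the Mbd3 promoter rose from 0.738 to 0.907 and from 0.761 to 0.891.

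Zbtb4, the other Kaiso-family reader, lies on chromosome 11 from 69765912 to 69784023 on the plus strand and did not share these changes. Its promoter had 0.0275 in NC uninduced, 0.0326 in siDNMT1 uninduced, 0.0191 in NC OB and 0.0274 in siDNMT1 OB cells, and its start island 0.0288, 0.0354, 0.0207 and 0.0281. Promoter, island and 5′ UTR were each a little higher with siDNMT1 both times, by less than 0.01. The body of the gene was methylated and leaned the other way. The exons lay between 0.539 and 0.574, the introns between 0.281 and 0.302, the 3′ UTR between 0.644 and 0.691 and the shore between 0.649 and 0.691. Each of these 4 was lower with siDNMT1 both times and lowest in siDNMT1 OB cells, and so were the medians of these classes over all regions.

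Uhrf1, the partner of DNMT1, lies on chromosome 17 from 56303321 to 56323486 on the plus strand. Its promoter had the lowest level of the 9 in NC uninduced cells, and levels of 0.0224, 0.0202, 0.0216 and 0.0174 in the 4 libraries. The start island, at 0.0178 to 0.0222, was alike. The exons were the most methylated of the 9 genes, at 0.805, 0.798, 0.795 and 0.782, and lowest in siDNMT1 OB cells. The median of all exons was lowest there too (0.334), and on centring the siDNMT1 difference of the Uhrf1 exons in OB cells was 0.000132. Introns lay between 0.340 and 0.358. The 3′ UTR had 0.600, 0.545 and 1.00 in the first 3 libraries and was not listed in siDNMT1 OB cells, so it entered no count.

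Uhrf2, the paralog of Uhrf1, lies on chromosome 19 from 30030513 to 30093722 on the plus strand, and its listed promoter and exon levels ran the opposite way. Its promoter had 0.361, 0.373, 0.384 and 0.363, while the levels listed for its exons (0.0129 to 0.0149), introns (0.0154 to 0.0289) and 5′ UTR (0.0131 to 0.0147) were near 0. Which CpG of the gene an exon or intron level rests on is not given. The island over its start, from 30029915 to 30031343, had 0.117, 0.124, 0.139 and 0.127, the highest of the 9 islands with 4 levels. A shore before it, from 30027914 to 30029913 and outside the gene, had 0.676, 0.676, 0.739 and 0.694. The 2 kb before the Uhrf2 start hold 79 CpG, the most of the 9 genes, and 58 of them lie in the island. In the promoter, the island and that shore NC OB was the highest library.

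Mbd4, the MBD protein with a glycosylase domain, lies on chromosome 6 from 115840697 to 115853371 on the minus strand. Its promoter had 0.101, 0.118, 0.102 and 0.1005, and its start island lay between 0.0113 and 0.0164. All 7 entries were higher with siDNMT1 in uninduced cells, by 0.00122 to 0.0174, and all 7 were lower with siDNMT1 in OB cells, down to -0.0528. After centring each library, 5 of the 7 were lower in OB cells and 2 higher, the promoter at 0.00833 and the 3′ UTR at 0.00286. The exons carried the widest difference, at 0.312, 0.314, 0.307 and 0.254, where siDNMT1 OB cells stood apart from the other 3 libraries. Of all exons, 9.62% differed as much with siDNMT1 in OB cells and 11.6% with induction in siDNMT1 cells. On centring, these differences came to -0.0398 and -0.0363. The introns had 0.178, 0.192, 0.181 and 0.161, the 3′ UTR 0.385, 0.391, 0.384 and 0.363, and the shore 0.101, 0.110, 0.102 and 0.0896. Ift122, a gene of ciliary transport, starts 99 bases from Mbd4 on the other strand, so the island lies at the starts of both genes.

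Tdg lies on chromosome 10 from 82629828 to 82650799 on the plus strand and changed in no comparison. The promoter had 0.141, 0.144, 0.132 and 0.125, and the start island, which the printed Tdg sequence enters, lay between 0.0108 and 0.0141. The 5′ UTR (0.0118 to 0.0180) was as low, and the exons lay between 0.104 and 0.114. Introns had 0.346, 0.374, 0.349 and 0.325, highest in siDNMT1 uninduced and lowest in siDNMT1 OB cells, where the median of all introns was lowest too (0.400). Its last bases overlap Glt8d2 on the other strand, and no 3′ UTR was listed for Tdg, Uhrf2 or Zbtb38.

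Islands and shores of these genes differed in CpG content, by definition, and mostly in level. The 9 islands with 4 levels held 8.37 to 14.5 CpG per 100 bases and the 7 shores 1.40 to 2.25. Over the 16 regions the mean level of the 4 libraries correlated with CpG content at a Spearman's rho of -0.629 and a Pearson's r of -0.671, a description of regions that share libraries and come in neighbouring pairs. Pooling the classes makes this mainly a contrast of islands with shores, and no correlation was computed within a class. Within the shores the level ran from near 0 in Mbd2 to above 0.8 in Mbd3 at much the same CpG content, 1.599 and 1.75. Among islands the 2 highest levels, in Uhrf2 and Zbtb38, were at 11.4 and 14.5 CpG per 100 bases.

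**Figure D4:**
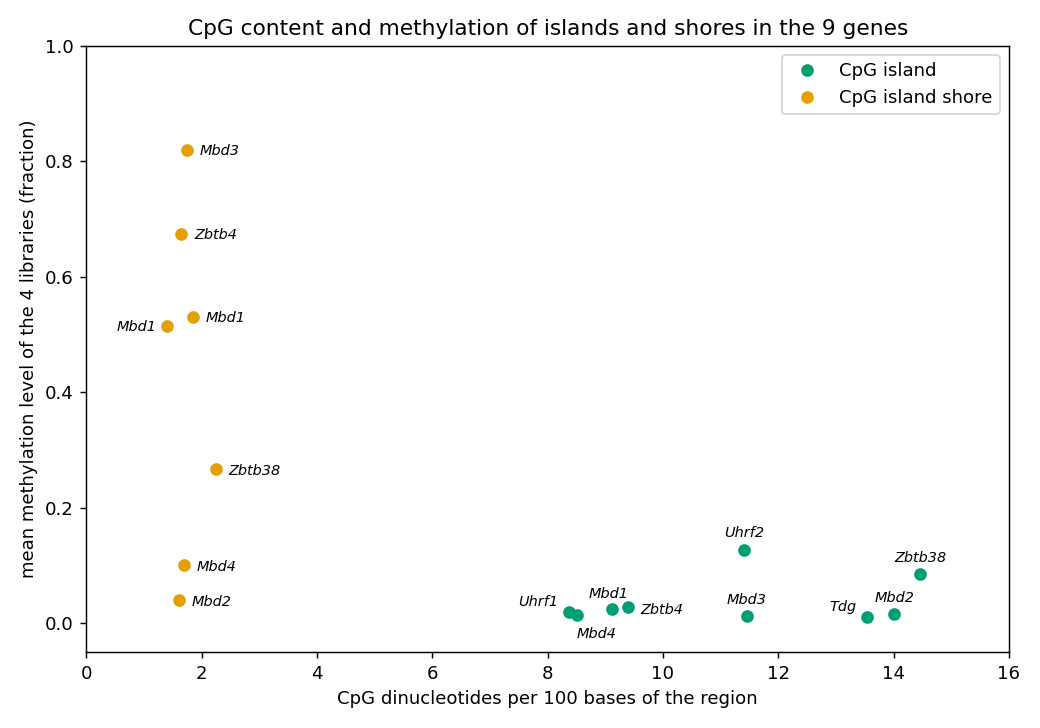
Mean methylation level of the 4 libraries (fraction, y axis) against CpG per 100 bases (x axis) of the 9 islands and 7 shores in the genes that have a level in all 4 libraries. Islands hold at least 8.37 CpG per 100 bases and lie low, and shores hold at most 2.25 and spread from 0.0398 to 0.821.

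Related genes gave the setting for the 9. A list of 62 genes held other MBD proteins, the remaining Kaiso-type reader, NuRD subunits, DNA methyltransferases, TET dioxygenases, CXXC proteins, base excision repair and partners of UHRF1 and DNMT1, and 56 of them had a promoter level in all 4 libraries. In uninduced cells 1 of the 56 promoters fell with siDNMT1 and 0 rose, beside 1.48% of all promoters changed. In OB cells, 2 fell with siDNMT1 and 1 rose, beside 2.19%, and on centring 1 fell and 1 rose. With induction, 0 changed in NC cells, and 2 fell (Xrcc1 and Fen1) and 2 rose (Mta3 and Dppa3) in siDNMT1 cells, beside 2.17% and 3.36%. Fen1, the flap endonuclease gene, was named after its values were seen. On centring, 1 fell and 3 rose there, since Fen1 came to -0.0831 and Apex2, also named after its values were seen, passed the threshold. The medians of the 56 were 0.000990 and -0.00325 for siDNMT1 and -0.00560 and -0.00588 for induction, and over all promoters -0.000713 and -0.00371, and -0.00320 and -0.00654. After centring, the 4 medians of the 56 were all above 0, between 0.00428 and 0.0180.

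The promoter of Mta3, a NuRD subunit, had 0.319 in NC uninduced, 0.137 in siDNMT1 uninduced, 0.371 in NC OB and 0.270 in siDNMT1 OB cells. It fell with siDNMT1 both before (-0.182) and after induction (-0.101), the latter at -0.0910 and short of the threshold on centring, and was the only 1 of the 13 NuRD promoters to change with siDNMT1. The promoter of Xrcc1, the scaffold of single-strand break repair, had 0.296, 0.315, 0.309 and 0.154, low in siDNMT1 OB cells alone (-0.154 from NC OB). The promoter of Dppa3, which encodes a factor that keeps UHRF1 from chromatin, had 0.3603, 0.342, 0.341 and 0.442, and rose by 0.101 with siDNMT1 in OB cells. The 4 methyltransferase and 3 TET promoters did not change by 0.1 in any comparison. The paper counts Dnmt3a among the genes with a differentially methylated promoter region after induction. A single level per promoter can neither show nor refute such a region.

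For the 5 members with all gene classes in all 4 libraries, the gene with the most similar pattern was sought among 2808 genes, by the mean absolute difference over 20 levels. It was Qsox1 for Mbd1 (0.0372), Mtmr12 for Mbd2 (0.0504), Plin3 for Mbd3 (0.0717), Htr1b for Mbd4 (0.0356) and Gdnf for Zbtb4 (0.0272). Mbd3 was the farthest from its nearest gene, and Zbtb4 the closest.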

How the data were processed

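Bisulfite libraries of C3H10T1/2 cells were analysed, 1 per condition, grouped by the sample labels. The authors, per the labels, used CASAVA, Trimmomatic (version 0.36) and Bismark (version 0.16.3) on mm10, and deposited the fraction of methylated CpG per region. The study calls the assay reduced representation bisulfite sequencing, and both its methods and the labels describe sonicated DNA. The coverage minimum and the weighting of CpG within a region are not given in the sources used here, and depth is unknown. Per library, 155398 to 159705 regions were listed, of which 57 to 59 belong to the 9 genes.

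Differences cover the regions of 7 classes that all 4 libraries list, and were counted from 0.1, with the share of all regions that passed given beside each count. Named were all members, related genes whose promoter changed with siDNMT1, and each member's nearest pattern. The members and lists were chosen with earlier results of these data known. The functions were tested on simulated data. Genes came from GENCODE vM21 and RefSeq, both GRCm38, and positions count from 1. Python 3.11.15, pandas 2.3.3, numpy 2.4.6, pysam 0.24.0 and matplotlib 3.10.9 were used. Alternatives covered the threshold, centring, minimum level, region choice and log odds.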

Additional observations from a re-analysis of the deposited data

Results flagged for a closer look

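The upstream shore of Mbd1 (chromosome 18, 74265931 to 74267930) was set apart because siDNMT1 and NC differed in opposite directions before and after OB induction, each by at least 0.05. It was the only 1 of the 57 entries to do so, and how many of all regions did so was not counted. The siDNMT1 level was 0.579 against 0.511 in uninduced cells and 0.485 against 0.551 in OB cells, and the change of the difference was -0.134. With 1 library per condition this change was not tested. Of all shores, 2.38% had siDNMT1 differences that parted by as much. The other shore of the same island was lower with siDNMT1 both times, and so was the promoter entry (-0.0215 and -0.0351).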

How the results depend on the processing

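Each condition had 1 library, so leaving out a replicate was not possible. No paired analysis was possible because no condition has a replicate number to pair. Depth sets an unknown limit, since the values carry no read counts.

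With a threshold of 0.05 in place of 0.1, changed entries went from 0 to 2 and from 2 to 4 for siDNMT1 in uninduced and OB cells, and from 2 to 4 and from 3 to 9 for induction in NC and siDNMT1 cells, and related promoters from 1 to 2, 3 to 6, 0 to 4 and 4 to 7. The share of all regions or promoters past 0.05 was not counted, so these counts have no background beside them. In the same order of comparisons, the 5th percentile of all regions was -0.0419, -0.0584, -0.0596 and -0.0747. With 0.2, 0 entries were left wherever there had been any. Centring each library on its class median left 1 of the 2 entries for siDNMT1 in OB cells, the Mbd1 shore, and 2 of the 3 related promoters there (Mta3 was lost), and gene entries alone left 0 entries. A mean level of at least 0.2 left 1 for induction in NC cells. The median difference for induction turned from -0.00235 to 0.00501 in NC and from -0.0119 to 0.00257 in siDNMT1 cells after centring. It turned to 0.00109 in NC cells at a mean level of at least 0.2. Centring takes off the shift of the class medians. For promoters in siDNMT1 cells these went from 0.188 to 0.164 with induction, beside a median difference of -0.00654. The cause of these turns was not tested. After centring, 189 differences of single entries moved by less than the spread of their class between the NC libraries and 39 by more.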
